A study of Zea mays with 318 samples.

Results

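ZAG2 (GRMZM2G160687) is a MADS-box gene of maize, and the study used it as an example of a gene whose expression differed between haplotypes of its own locus. The comparison described here takes the 6 inbred lines that the study named for this example and asks which other genes differed between them across the genome. The Hap.A lines were CIMBL120, CIMBL150 and CIMBL6, and the Hap.B lines were CIMBL141, GEMS64 and Y2348. They are 6 of the 318 inbred lines sequenced, and the remaining lines served as a panel outside the comparison. Each line was 1 RNA-seq library of kernels at 5 DAP (days after pollination), made from seeds of 3 field blocks that were mixed before RNA extraction. No line carried a transgene or a treatment. The lines were inbreds with different genomes, so the haplotype at ZAG2, the remaining genetic background and the exact kernel stage cannot be told apart in these groups. All 3 Hap.A lines belonged by name to the CIMBL series, against 1 of the 3 Hap.B lines. The assignment to haplotypes was the study's, by the SNP most strongly associated with ZAG2, with the lines drawn at random from each class, and it was not checked against genotypes here. With 1 library per line, p-values measure the spread between inbred lines.

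MADS-box genes of the AGAMOUS group, to which ZAG2 belongs, encode transcription factors that specify carpels and ovules, and ZAG2 transcripts are known from the developing female inflorescence and kernel. At 5 DAP the maize kernel is a mixture of maternal pericarp and nucellus, a very small embryo and an endosperm that passes from the coenocytic to the cellular state. Starch synthesis and storage protein accumulation have hardly begun at that stage. Because whole kernels were sampled, fewer cells of a type and less RNA per cell cannot be told apart in any value below.

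The 6 libraries held between 11619471 and 15863761 counts, and 20573 of 39625 genes had a median above 1 FPKM over the 6 lines, ZAG2 itself left out. FPKM is a fragment count scaled for gene length and library depth, here computed from counts normalised with DESeq2 over all lines. It compares levels between genes as well as between lines. ZAG2 was at 95.2, 118.7 and 135.6 FPKM in the Hap.A lines, against 318, 347 and 432 FPKM in the Hap.B lines. Counted from the lowest of the 318 lines, ZAG2 ranked 5, 15 and 38 in the Hap.A lines and 300, 310 and 314 in the Hap.B lines. The groups thus lay toward the low and the high end of the panel in ZAG2. This difference belongs to the choice of the lines and is given as a description only. A measure of how typical each transcriptome was, Pearson's r of a line's FPKM with the mean of the other lines of the panel over the 1000 genes with the highest mean, was 0.630 in CIMBL120, 0.803 in CIMBL150 and 0.603 in CIMBL6, against 0.894 in CIMBL141, 0.894 in GEMS64 and 0.865 in Y2348. The groups did not overlap in this r (exact permutation test, two-sided, p = 0.1, adjusted p = 0.4 over 4 line measures), and 0.1 is the smallest p that 3 against 3 lines allow. Over the other lines of the panel the median r was 0.829. The 10 most abundant genes took 0.927, 2.59 and 1.13% of the counts in CIMBL120, CIMBL150 and CIMBL6, against 2.42, 2.77 and 2.27% in CIMBL141, GEMS64 and Y2348. On this measure CIMBL150 lay among the Hap.B lines. The part of these line differences in the gene differences below was not tested beyond the fits named there.

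The 3 Hap.A lines were also less alike than the 3 Hap.B lines. Pearson's r of log2(FPKM + 1) between pairs of lines, over the genes tested, was 0.779 to 0.816 among the Hap.A lines and 0.859 to 0.884 among the Hap.B lines, and CIMBL150 had an r of 0.871 with CIMBL141, above its r with either other Hap.A line. CIMBL6 was the lowest of the 6 lines by at least 2-fold in 5.85% of the genes tested, CIMBL120 in 5.19% and CIMBL150 in 3.21%, against 1.91% in CIMBL141, 2.01% in GEMS64 and 2.90% in Y2348. In the opposite direction, CIMBL6 stood at least 2-fold above the other 5 lines in 2.48% of the genes, CIMBL120 in 1.64% and CIMBL150 in 1.30%, against 0.841% in CIMBL141, 1.22% in GEMS64 and 1.77% in Y2348.

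No gene passed the test between the 3 Hap.A and the 3 Hap.B lines. With edgeR's quasi-likelihood test, 0 of 20573 genes (0%) had a Benjamini-Hochberg adjusted p below 0.05, and the smallest adjusted p was 0.14. At an unadjusted p below 0.05 there were 2302 genes (11.2%), of which 1137 (5.53%) were higher and 1165 (5.66%) lower in the Hap.A lines. The other tools run on the same 6 libraries gave different numbers. DESeq2 called 395 genes (1.93%), with 0.719% of the genes higher and 1.21% lower in the Hap.A lines, and limma on log2(FPKM + 1) called 6, of which 2 were higher and 4 lower. The biological coefficient of variation between lines of a haplotype was 0.559, and a fit that took the spread from all 318 lines also called 0 genes, with 2590 at an unadjusted p below 0.05 and a smallest adjusted p of 0.0863. With the consistency r added to that fit, 0 genes were called and 1575 had an unadjusted p below 0.05. Of the 2302 genes of the 6-line fit, 929 had an unadjusted p below 0.05 there as well. On simulated counts the 6-line test called 0 of 68 genes with an absolute log2 fold change of 1 and 35 of 66 with 4. A gene that was not called may therefore still differ. Log2 fold changes are given as Hap.A over Hap.B, with the SE from the spread of log2 normalised counts between lines, and p is the unadjusted edgeR p unless said otherwise.

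**Figure D1:**
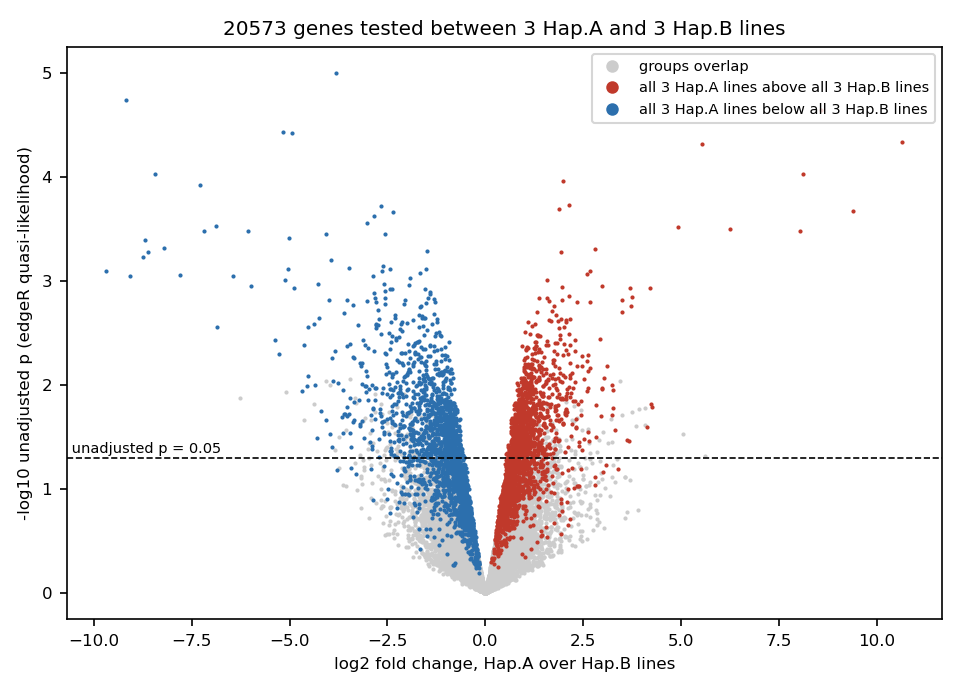
Log2 fold change (Hap.A over Hap.B lines, x axis) and -log10 of the unadjusted edgeR p (y axis) of the 20573 genes tested, 1 point per gene. Red points are the 1981 genes with all 3 Hap.A lines above all 3 Hap.B lines, blue points the 2046 genes with all 3 below, and 2302 genes lie above the dashed line at p = 0.05, none of them past the adjusted threshold.

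A description that needs no model is whether the groups overlap. All 3 Hap.A lines were above all 3 Hap.B lines in FPKM in 1981 genes (9.63%), and all 3 were below in 2046 genes (9.95%), which makes 4027 genes (19.6%) without overlap. On counts divided by the library total alone, the split was 2456 genes higher (11.9%) and 1480 lower (7.19%) in the Hap.A lines. That scaling adds 0.14 to every log2 fold change, and the medians of gene lists below are to be read against it. The counts of signs in these lists are to be read against all genes tested, of which 10421 of 20573 had a log2 fold change above 0. The nearest lines of the groups were at least 2-fold apart in 0.321% of the genes with the Hap.A lines higher and in 0.812% with the Hap.A lines lower. Of the 395 genes that DESeq2 called, 377 were among the 4027 genes without overlap.

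Most of the genes at the head of the list were near 0 in the lower group. Any gene below 1 FPKM in all 3 lines of a group passed the filter of a median above 1 FPKM only through the other group. This also holds for genes named below, such as cystatin8, MYB94, gst18, EBE-1 and PIP2-4. None of the 3 genes with the smallest p in each direction has a gene name in the annotation used. GRMZM2G326116 was at 22.2, 47.8 and 45.2 FPKM in the Hap.A lines, against 0, 0.241 and 0.0585 FPKM in the Hap.B lines (p = 2.24e-05, adjusted p = 0.14 with edgeR). GRMZM2G445139 was at 4.54, 6.31 and 6.52 FPKM in the Hap.A lines and had no count in any Hap.B line, which makes it at least 61.9-fold higher when 3 counts per library are taken as the floor. GRMZM2G115453 was at 10.5, 8.78 and 7.21 FPKM in the Hap.A lines, against 0.199, 0.0749 and 0.273 FPKM in the Hap.B lines. All 3 genes separated the groups by a wide margin. In the other direction, GRMZM2G346693 had the smallest p of all genes (p = 9.94e-06, adjusted p = 0.14 with edgeR), with 0.969, 1.57 and 1.33 FPKM in the Hap.A lines, against 15.9, 17.6 and 21.98 FPKM in the Hap.B lines. GRMZM2G025720 was at 0.0442 FPKM (1 count) in CIMBL120 and at 0 in CIMBL150 and CIMBL6, against 13.8, 7.67 and 13.2 FPKM in the Hap.B lines. GRMZM2G035685 was at 0.159, 0.144 and 0.0892 FPKM in the Hap.A lines, against 3.66, 5.61 and 5.39 FPKM in the Hap.B lines. GRMZM2G106413, named here after its values were seen because limma called it, had the highest level of this kind, with 68.1, 29.7 and 27.3 FPKM in the Hap.A lines, against 1574, 1369 and 950 FPKM in the Hap.B lines.

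These patterns were not private to the 6 lines. Over the other lines of the panel GRMZM2G326116 ranged from 0 to 66.2 FPKM (median 26.7), GRMZM2G346693 from 0.0306 to 43.2 FPKM (median 3.70) and GRMZM2G025720 from 0 to 21.97 FPKM (median 0.0378). GRMZM2G445139 ranged from 0 to 16.1 FPKM there, with a median of 0.

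Among the genes with a name, the 10 smallest p values in each direction include enzymes, transporters and regulators. D14a, a strigolactone receptor gene, was at 50.4, 69.6 and 65.9 FPKM in the Hap.A lines, against 13.2, 17.98 and 11.2 FPKM in the Hap.B lines (log2 fold change 2.15, SE 0.24, p = 0.000187, adjusted p = 0.278 with edgeR). The groups were well apart, with the highest value in CIMBL150. du1, which encodes the starch synthase of the dull1 mutant, was at 22.7, 17.5 and 15.8 FPKM in the Hap.A lines, against 4.47, 5.75 and 5.24 FPKM in the Hap.B lines (log2 fold change 1.88, SE 0.19). bHLH148, a basic helix-loop-helix transcription factor gene, was at 22.5, 10.4 and 23.2 FPKM in the Hap.A lines, against 3.30, 2.52 and 2.33 FPKM in the Hap.B lines (log2 fold change 2.81, SE 0.42). Neither gene had overlapping groups, and CIMBL150 was the Hap.A line nearest to Hap.B for bHLH148. MTD1 was at 54.1, 78.7 and 76.3 FPKM in the Hap.A lines, against 27.1, 12.2 and 15.4 FPKM in the Hap.B lines. HAK24, a potassium transporter gene of the HAK family, was at 4.65, 2.44 and 3.58 FPKM in the Hap.A lines, against 0.914, 0.758 and 1.20 FPKM in the Hap.B lines. The remaining 5 of these 10 genes, gst18, conz1, TPS2, TPS4 and TPS7, are described with their groups below.

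The 10 named genes with the smallest p on the lower side were led by Laccase-13 (GRMZM5G814718), a member of the laccases that oxidise lignin precursors. It was at 2.38, 3.11 and 1.43 FPKM in the Hap.A lines, against 14.7, 13.4 and 16.4 FPKM in the Hap.B lines (log2 fold change -2.67, SE 0.32, p = 0.000188, adjusted p = 0.278 with edgeR). cystatin8, an inhibitor of cysteine proteases, was at 0.107, 0.129 and 0.401 FPKM in the Hap.A lines, against 7.90, 10.9 and 4.50 FPKM in the Hap.B lines (log2 fold change -5.02, SE 0.48). Both genes were low in every Hap.A line. The histone H4 gene H4C13 (GRMZM2G149178) stood out for how little it varied among the Hap.B lines, with 295.2, 295.2 and 204.4 FPKM in the Hap.A lines, against 843, 831 and 860 FPKM in the Hap.B lines (log2 fold change -1.66, SE 0.17). Another gene annotated H4C13, GRMZM2G181153, was at 216.6, 105.4 and 10.7 FPKM in the Hap.A lines, against 203.3, 216.8 and 335.9 FPKM in the Hap.B lines, and overlapped. Histone genes have near-identical copies, which unique mapping may split. glu1, the beta-glucosidase p60.1 that can release cytokinins from their glucosides, was at 97.9, 136.9 and 118.1 FPKM in the Hap.A lines, against 257.5, 1071 and 644 FPKM in the Hap.B lines. pck2, a phosphoenolpyruvate carboxykinase gene by its symbol, was at 9.31, 4.47 and 5.12 FPKM in the Hap.A lines, against 25.6, 15.7 and 27.8 FPKM in the Hap.B lines. The groups overlapped in none of these genes but GRMZM2G181153. The glutathione S-transferase genes gst28 and gst30 were also lower in all 3 Hap.A lines, gst28 at 13.4, 7.602 and 8.97 FPKM against 29.5, 48.95 and 102.5 FPKM in the Hap.B lines, and gst30 at 0.771, 0.467 and 1.11 FPKM against 8.86, 3.86 and 4.09 FPKM in the Hap.B lines. The transcription factor gene dof2 was at 13.6, 24.4 and 23.1 FPKM in the Hap.A lines, against 50.8, 94.3 and 54.05 FPKM in the Hap.B lines, and MYB94 was at 0.299, 0.543 and 0.224 FPKM, against 1.84, 2.9998 and 2.67 FPKM in the Hap.B lines.

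**Figure D2:**
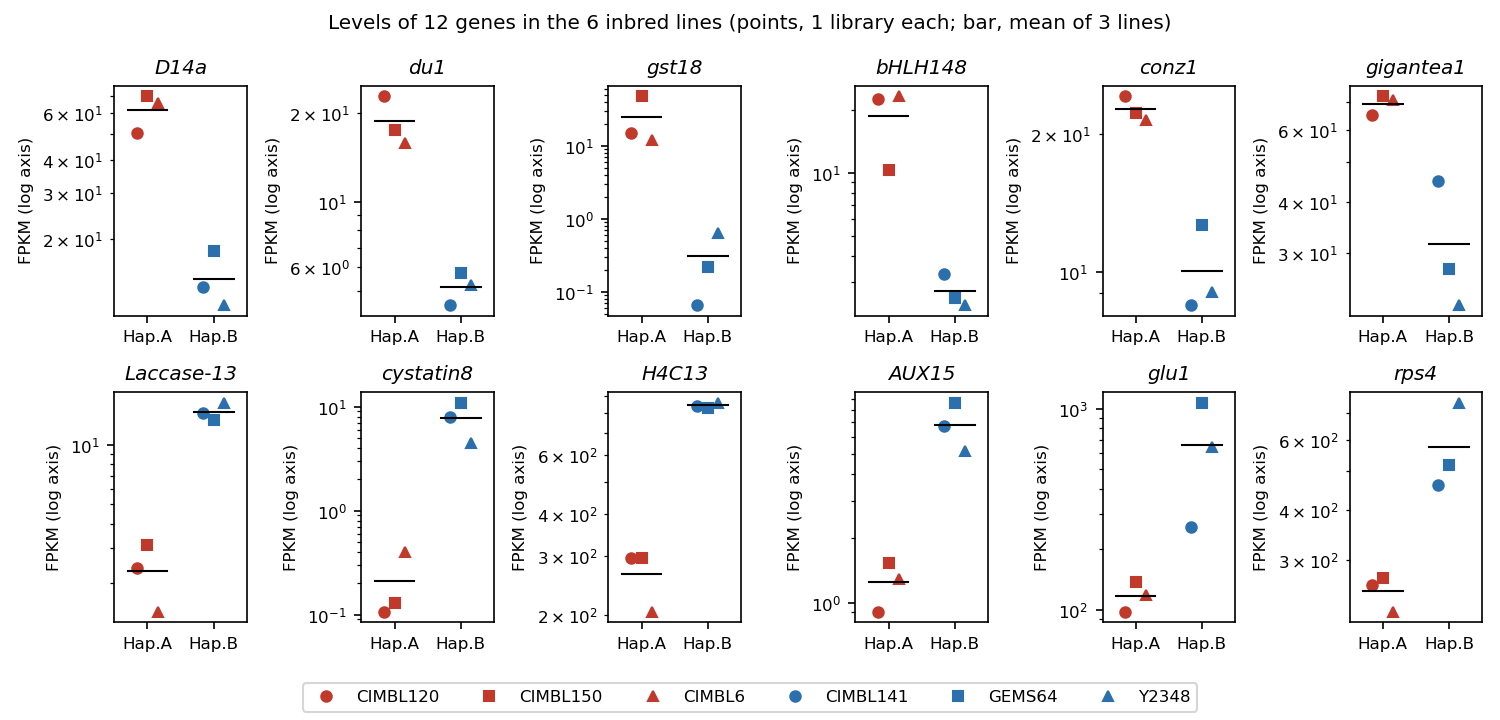
FPKM (log y axis) of 12 genes in the 3 Hap.A lines (red, left) and the 3 Hap.B lines (blue, right), 1 point per line with a marker for each line and a bar at the mean of 3 lines. The 6 genes of the upper row are above all Hap.B lines in every Hap.A line and the 6 of the lower row are below, for example H4C13 at 204.4 to 295.2 FPKM in the Hap.A lines and 831 to 860 FPKM in the Hap.B lines. The rps4 shown is GRMZM2G125271, and the H4C13 shown is GRMZM2G149178.

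The other MADS-box genes share their family with ZAG2, but not all of them are of its AGAMOUS group. Of 33 with a name, 26 were tested, and 21 of the 26 had a log2 fold change below 0. In 4 (15.4%) all 3 Hap.A lines were below all 3 Hap.B lines, against 9.95% of all genes, and in 0 they were all above, against 9.63%. The median log2 fold change was -0.37, against 0.01 over all genes tested. MADS15 was at 12.9, 17.01 and 22.2 FPKM in the Hap.A lines, against 25.1, 39.2 and 71.9 FPKM in the Hap.B lines (log2 fold change -1.36, SE 0.49, p = 0.0169, adjusted p = 0.416 with edgeR). zmm17, a MADS-box gene of the B-sister type, was at 33.4, 72.2 and 28.3 FPKM in the Hap.A lines, against 91.2, 89.7 and 92.4 FPKM in the Hap.B lines. The groups did not overlap in either gene, and CIMBL150 was nearest to Hap.B for zmm17. The most abundant members overlapped. zmm6 was at 292.9, 532 and 444 FPKM in the Hap.A lines, against 386, 732 and 549 FPKM in the Hap.B lines, and zmm27 was at 256.7, 371 and 383 FPKM in the Hap.A lines, against 336, 424 and 520 FPKM in the Hap.B lines. AGAMOUS (GRMZM2G359952), added after its values were seen as a gene of the same group as ZAG2, was at 94.4, 140.6 and 93.2 FPKM in the Hap.A lines, against 90.9, 180.96 and 180 FPKM in the Hap.B lines. It did not separate the groups.

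The genes next to ZAG2 on the chromosome were examined on their own. Of the 10 annotated genes on each side, 8 were paired with an identifier of the table and 7 were tested. Groups did not overlap in 3 of these 7, against 19.6% of all genes tested. The Hap.A lines were higher in 1 (14.3%), against 9.63%, and lower in 2 (28.6%), against 9.95%. The median log2 fold change of the 7 was -0.27. gst18, a glutathione S-transferase gene and the outermost of these neighbours on its side, was at 15.3, 47.99 and 12.3 FPKM in the Hap.A lines, against 0.0659, 0.224 and 0.651 FPKM in the Hap.B lines (log2 fold change 6.26, SE 0.83, p = 0.000317, adjusted p = 0.281 with edgeR). It was expressed in all 3 Hap.A lines and nearly silent in all 3 Hap.B lines. Over the other lines of the panel gst18 ranged from 0 to 88.1 FPKM with a median of 24.9 FPKM, and its Spearman's rho with ZAG2 was 0.08. ARGOS9, of a family that promotes organ growth in Arabidopsis, was at 1.74, 3.12 and 0.252 FPKM in the Hap.A lines, against 16.2, 5.86 and 8.58 FPKM in the Hap.B lines. GRMZM2G168510, next to it, was at 25.7, 43.7 and 36.1 FPKM in the Hap.A lines, against 60.5, 58.96 and 70.2 FPKM in the Hap.B lines. Neither passed the test (adjusted p = 0.416 for both with edgeR). The gene order is that of a later assembly than the one the reads were mapped to.

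Genes of light response and the circadian clock were higher in the Hap.A lines more often than not. Of 33 named genes on this list 11 were tested, 10 had a log2 fold change above 0, and in 5 (45.5%) all 3 Hap.A lines were above all 3 Hap.B lines, against 9.63% of all genes tested, with a median log2 fold change of 1.16. DESeq2 called 3 of the 11 as higher, against 0.719% of all genes, and edgeR called 0. gigantea1 (GI, GRMZM2G107101), a clock output gene, was at 65.2, 72.4 and 70.8 FPKM in the Hap.A lines, against 44.9, 27.4 and 22.4 FPKM in the Hap.B lines (log2 fold change 1.16, SE 0.30, p = 0.0122, adjusted p = 0.416 with edgeR). Its paralog gigz1b was at 34.2, 24.4 and 46.99 FPKM in the Hap.A lines, against 17.1, 7.02 and 8.36 FPKM in the Hap.B lines. conz1, a CONSTANS-like gene, was at 24.2, 22.3 and 21.5 FPKM in the Hap.A lines, against 8.46, 12.7 and 9.04 FPKM in the Hap.B lines. The groups were apart in all 3 genes. The other 2 genes without overlap, PRR59 and COL14, were named after their values were seen and had log2 fold changes of 1.55 and 1.94. ZCN14, a gene of the FT family and the most abundant of the list together with gigantea1, was at 7.92, 29.4 and 40.96 FPKM in the Hap.A lines, against 34.3, 78.1 and 116.5 FPKM in the Hap.B lines, where the groups overlapped. The median of the list was 0.54 without CIMBL6, 1.14 without CIMBL120 and -0.04 with CIMBL150 as the only Hap.A line.

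Genes with the symbol TPS lay in the same direction. The symbol is used for more than 1 enzyme family in maize, so no role is given. Of 19 such genes 8 were tested, 7 had a log2 fold change above 0, in 4 (50%) all 3 Hap.A lines were above all 3 Hap.B lines, against 9.63% of all genes tested, and the median log2 fold change was 1.16. DESeq2 called 4 of the 8 as higher, against 0.719% of all genes, and edgeR called 0. TPS7 was at 78.997, 57.5 and 74.04 FPKM in the Hap.A lines, against 21.98, 22.5 and 10.5 FPKM in the Hap.B lines (log2 fold change 1.96, SE 0.40). TPS2 was at 49.5, 31.6 and 42.9 FPKM in the Hap.A lines, against 20.6, 15.6 and 13.6 FPKM in the Hap.B lines. TPS3 was at 83.998, 70.5 and 69.1 FPKM in the Hap.A lines, against 32.3, 39.9 and 42.4 FPKM in the Hap.B lines. TPS4 was at 9.97, 3.41 and 12.5 FPKM in the Hap.A lines, against 1.61, 1.27 and 1.23 FPKM in the Hap.B lines. The Hap.A lines were clear of the Hap.B lines in each of these 4. TPS9 and TPS3 were the most abundant of the list. TPS9 was at 124.7, 95.1 and 40.3 FPKM in the Hap.A lines, against 20.3, 56.5 and 7.50 FPKM in the Hap.B lines, and overlapped. The median of the list was 0.67 in the fit of all 318 lines with the consistency r.

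Ribosomal protein genes were lower in the Hap.A lines almost without exception in sign, though by small amounts. Of 33 tested, 32 had a log2 fold change below 0, the median was -0.50, and in 7 (21.2%) all 3 Hap.A lines were below all 3 Hap.B lines, against 9.95% of all genes tested. One of the genes annotated rps4 (GRMZM2G125271), for a protein of the small subunit, was at 258.9, 270 and 221.97 FPKM in the Hap.A lines, against 463, 520 and 744 FPKM in the Hap.B lines (log2 fold change -1.18, SE 0.22, p = 0.00799, adjusted p = 0.416 with edgeR). Another gene annotated rps4, GRMZM2G035017, was at 321, 286.5 and 183.9 FPKM in the Hap.A lines, against 304.2, 451 and 462 FPKM in the Hap.B lines, and overlapped. rpl30, for a protein of the large subunit, was at 24.3, 13.97 and 9.97 FPKM in the Hap.A lines, against 41.9, 46.1 and 58.2 FPKM in the Hap.B lines. Ribosomal protein genes exist in near-identical copies, and only uniquely mapped reads were counted, so the levels of single genes are uncertain. The median of the list was between -0.67 and -0.27 in 17 alternative fits.

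Genes of cell division lay on both sides. Among the 43 tested cell cycle genes 14 had a log2 fold change above 0, 7 (16.3%) were lower in all 3 Hap.A lines, against 9.95% of all genes tested, 3 (6.98%) were higher, against 9.63%, and the median was -0.19. wee1, a kinase that inhibits cyclin-dependent kinases, was at 6.60, 4.38 and 6.19 FPKM in the Hap.A lines, against 15.05, 12.7 and 13.4 FPKM in the Hap.B lines (log2 fold change -1.23, SE 0.21). The D-type cyclin gene cycD1 was at 3.23, 6.80 and 7.56 FPKM in the Hap.A lines, against 11.3, 18.4 and 22.2 FPKM in the Hap.B lines. Both genes separated the groups, whereas cycD2, at 40.2, 30.2 and 68.8 FPKM in the Hap.A lines and 36.3, 65.6 and 90.1 FPKM in the Hap.B lines, did not. Histone and chromatin genes were split, with 5 of 54 higher and 5 lower (9.26% each) and a median of -0.10 that became 0.03 with library totals alone. The higher ones carried the symbols chr124, chr122 and met1, and none had a histone symbol. Identifiers that share a symbol, as for chr124 and chr122, were counted separately. Beside H4C13, nfd101 was at 272.7, 210.5 and 140 FPKM in the Hap.A lines, against 608, 375 and 480 FPKM in the Hap.B lines. his2a1, a histone H2A gene, was at 743, 370 and 240 FPKM in the Hap.A lines, against 699, 990 and 1414 FPKM in the Hap.B lines, and overlapped through CIMBL120.

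Hormone genes were described by hormone. In the auxin list 27 of 37 tested genes had a log2 fold change below 0, 8 (21.6%) were lower in all 3 Hap.A lines, against 9.95% of all genes tested, 2 (5.41%) were higher, against 9.63%, and the median was -0.51. AUX15, named among auxin genes by its symbol, was at 0.908, 1.54 and 1.29 FPKM in the Hap.A lines, against 6.71, 8.66 and 5.12 FPKM in the Hap.B lines (log2 fold change -2.43, SE 0.30). The PIN family gene PIN10a, a carrier that exports auxin from cells, was at 3.27, 2.76 and 3.39 FPKM in the Hap.A lines, against 5.85, 8.73 and 10.97 FPKM in the Hap.B lines. abp1 was at 97.6, 170 and 121.3 FPKM in the Hap.A lines, against 185.03, 195.3 and 247.1 FPKM in the Hap.B lines. All 3 were without overlap, while ARF10, an auxin response factor gene, overlapped at 94.8, 64.7 and 59.4 FPKM in the Hap.A lines and 88.9, 79.1 and 60.9 FPKM in the Hap.B lines. Of 22 cytokinin genes tested, 10 had a log2 fold change above 0, and 5 (22.7%) were lower and 2 (9.09%) higher in all 3 Hap.A lines, against the same 9.95% and 9.63% of all genes. The median of -0.16 became -0.03 with library totals alone, 0.06 without CIMBL6 and 0.06 between CIMBL lines alone. The response regulator gene crr1 was at 4.50, 2.56 and 8.74 FPKM in the Hap.A lines, against 23.7, 83.7 and 22.8 FPKM in the Hap.B lines (log2 fold change -3.004, SE 0.80). CKX4b, for a cytokinin-degrading oxidase, was at 0.996, 5.12 and 1.67 FPKM in the Hap.A lines, against 9.27, 22.4 and 13.1 FPKM in the Hap.B lines. HP1, a histidine phosphotransfer gene, was at 53.8, 67.3 and 44.5 FPKM in the Hap.A lines, against 81.1, 92.6 and 115.8 FPKM in the Hap.B lines. These 3 genes thus lay lower in every Hap.A line. Of 24 gibberellin and abscisic acid genes, 1 (4.17%) was lower and 0 were higher in all 3 Hap.A lines, against the same shares of all genes. The median of this list was -0.05, which became 0.08 with library totals alone.

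Defence genes had the lowest median of the lists with more than 10 genes tested. It was -0.78 over 35 genes, of which 7 had a log2 fold change above 0, 8 (22.9%) were lower in all 3 Hap.A lines, against 9.95% of all genes tested, and 1 (2.86%) was higher, against 9.63%. Besides cystatin8, the cytochrome P450 genes of benzoxazinoid synthesis were among them. BX4 was at 11.2, 13.2 and 8.03 FPKM in the Hap.A lines, against 18.97, 34.5 and 54.7 FPKM in the Hap.B lines (log2 fold change -1.72, SE 0.48). BX3 and BX5, named after their values were seen, were without overlap as well and had log2 fold changes of -1.47 and -1.99. bx9, a glucosyltransferase gene of the same pathway that was also picked afterwards, was at 222.9, 70.7 and 90.6 FPKM in the Hap.A lines, against 127.3, 42.1 and 56.6 FPKM in the Hap.B lines, so the pathway was not lower throughout. The most abundant members overlapped, aos of jasmonate synthesis at 386, 653 and 108.7 FPKM in the Hap.A lines and 378, 278.9 and 188.8 FPKM in the Hap.B lines, and the proteinase inhibitor gene MPI at 91.3, 238.5 and 63.4 FPKM and 154.8, 230 and 690 FPKM in the Hap.B lines. In the fit with the consistency r the median of the list was -0.43, and between CIMBL lines alone it was -0.22.

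**Figure D3:**
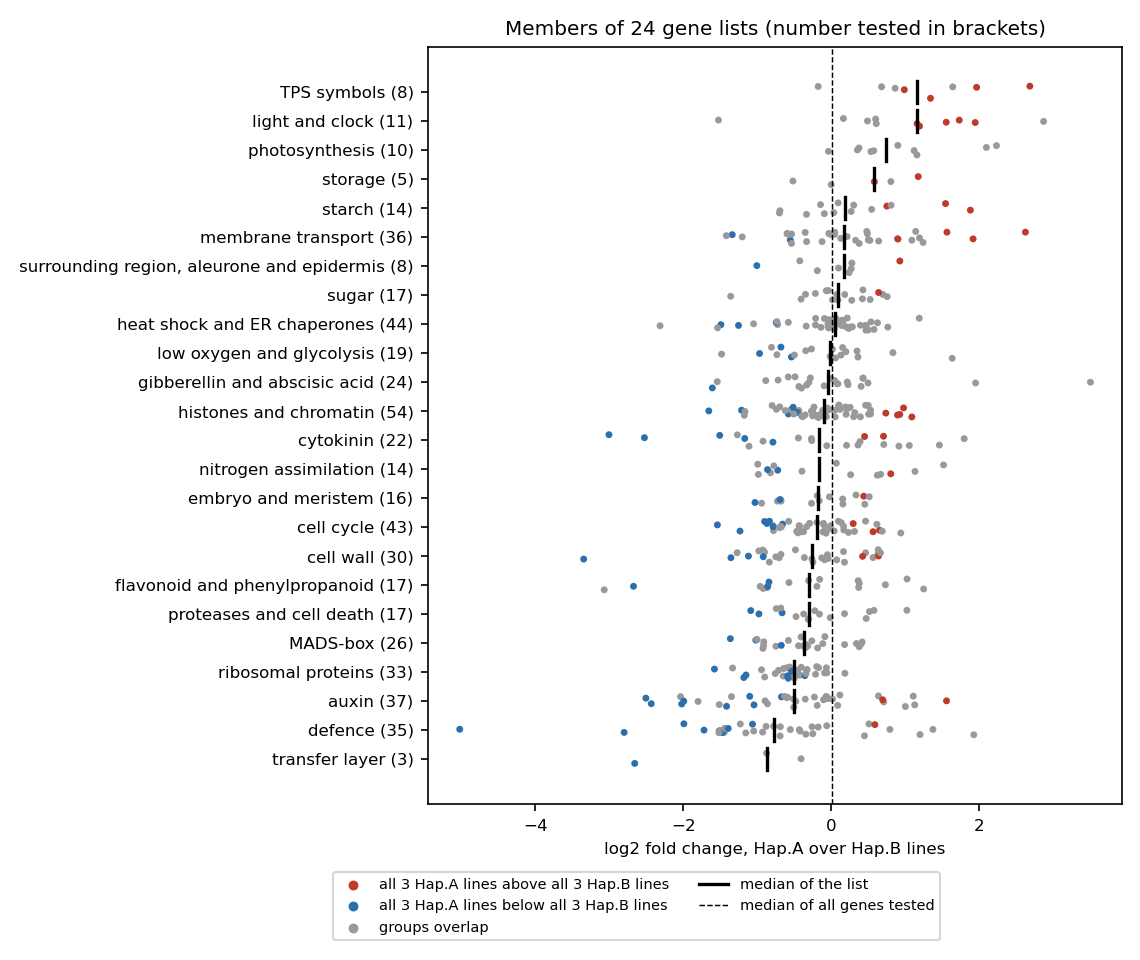
Log2 fold change (Hap.A over Hap.B lines, x axis) of the tested members of 24 gene lists, 1 point per gene, with the list median as a black bar and the median of all genes tested (0.01) as a dashed line. Medians run from -0.87 (transfer layer, 3 genes) to 1.16 (TPS symbols and light and clock), and red and blue points are genes whose groups do not overlap.

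Genes of starch and sugar metabolism were mixed. Of 14 starch genes tested, 3 (21.4%) were higher and 0 lower in all 3 Hap.A lines, against 9.63% and 9.95% of all genes tested, with a median of 0.18. Besides du1, the debranching enzyme gene zpu1 was at 1.98, 3.84 and 6.57 FPKM in the Hap.A lines, against 1.86, 1.35 and 1.12 FPKM in the Hap.B lines. The most abundant starch genes overlapped, Agp2 at 37.3, 63.7 and 36.5 FPKM in the Hap.A lines and 51.3, 64.3 and 110 FPKM in the Hap.B lines, and ae1, a starch branching enzyme gene, at 21.9, 70.1 and 15.7 FPKM and 33.6, 61.3 and 41.4 FPKM in the Hap.B lines. Of 17 sugar genes 1 (5.88%) was higher and 0 were lower in all 3 Hap.A lines, against the same shares of all genes. The cell wall invertase gene INCW2 (mn1), which marks the basal transfer cells of the endosperm, was at 6.17, 50.03 and 10.1 FPKM in the Hap.A lines, against 22.5, 28.3 and 37.3 FPKM in the Hap.B lines. CIMBL150 had the highest value and the other Hap.A lines the lowest. Of 26 storage genes 5 were tested. In all 3 Hap.A lines 2 of these (40%) were higher and 0 lower, against 9.63% and 9.95% of all genes tested. These 2 were pbf1 and ohp2, regulators that bind promoters of storage protein genes. pbf1 was at 13.99, 8.60 and 13.5 FPKM in the Hap.A lines, against 6.39, 6.46 and 3.42 FPKM in the Hap.B lines. ohp2 was at 22.5, 16.5 and 21.7 FPKM, against 14.4, 12.2 and 14.6 FPKM in the Hap.B lines. The other tested members overlapped, with log2 fold changes of 0.80 for FL1, -0.52 for ohp1 and -0.003 for O10. The summed level of the storage list overlapped too, at 61.25 to 80.5 FPKM in the Hap.A lines and 49.7 to 71.9 FPKM in the Hap.B lines.

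Marker genes of kernel compartments overlapped between the haplotypes in their summed levels. Of 17 transfer layer genes, 13 were listed at 0 in all 6 lines and 3 were tested. The summed level of the list was 11.4 to 55.2 FPKM in the Hap.A lines and 28.5 to 55.7 FPKM in the Hap.B lines, with CIMBL150 at the top of the Hap.A range. Most of this sum was INCW2, described above, with 50.03 of 55.2 FPKM in CIMBL150 and 22.5 of 28.5 FPKM in CIMBL141. EBE-1, expressed in the embryo sac and basal endosperm, was at 0.753, 0.761 and 0.207 FPKM in the Hap.A lines, against 2.98, 4.26 and 3.69 FPKM in the Hap.B lines (log2 fold change -2.66, SE 0.56). Its relative EBE-2 was at 4.33, 4.02 and 3.20 FPKM in the Hap.A lines, against 2.87, 5.58 and 13.03 FPKM in the Hap.B lines, and overlapped. Genes of the embryo-surrounding region, aleurone and epidermis summed to 242.6 to 340 FPKM in the Hap.A lines and 315 to 364 FPKM in the Hap.B lines, and embryo and meristem genes to 201.9 to 262.4 FPKM and 243.6 to 355 FPKM in the Hap.B lines. Both ranges overlapped. dek1, a calpain gene needed for the aleurone, was at 8.83, 6.60 and 13.7 FPKM in the Hap.A lines, against 4.89, 6.16 and 4.58 FPKM in the Hap.B lines, and ocl3 of the epidermis was at 9.48, 12.6 and 4.32 FPKM in the Hap.A lines, against 16.1, 22.8 and 14.5 FPKM in the Hap.B lines. These genes of the same list lay on opposite sides. Photosynthesis genes, which mark green pericarp, summed to 52.7 to 63.9 FPKM in the Hap.A lines and 28.6 to 54.95 FPKM in the Hap.B lines. Of 10 tested, 0 were without overlap, against 19.6% of all genes tested. A log2 fold change above 0 was found in 9 of the 10, against 10421 of all 20573 genes. The median of the 10 was 0.735, and it was between 0.33 and 2.20 in the alternative fits. The part of these compartments in the gene differences was not tested.

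The remaining lists are given against the 9.95% of all genes tested that were lower and the 9.63% that were higher in all 3 Hap.A lines. Of 44 heat shock and ER chaperone genes, 3 (6.82%) were lower and 0 higher, with a median of 0.05. Of 19 genes of low oxygen response and glycolysis, 3 (15.8%) were lower and 0 higher, among them the glycolytic genes GAPC2, at 556, 526 and 352 FPKM in the Hap.A lines against 749, 824 and 755 FPKM in the Hap.B lines, and eno2, at 359, 430 and 433 FPKM against 550, 511 and 741 FPKM in the Hap.B lines. These abundant enzymes differed by less than 2-fold. Of 36 membrane transport genes 4 (11.1%) were higher and 2 (5.56%) lower, and of 17 flavonoid and phenylpropanoid genes 3 (17.6%) were lower and 0 higher. Of 17 protease and cell death genes 3 (17.6%) were lower and 0 higher, of 30 cell wall genes 4 (13.3%) were lower and 2 (6.67%) higher, and of 14 nitrogen assimilation genes 2 (14.3%) were lower and 1 (7.14%) higher. The aquaporin gene PIP2-4 was at 1.77, 4.41 and 1.90 FPKM in the Hap.A lines, against 0.625, 0.295 and 0.386 FPKM in the Hap.B lines, while PIP2-1, the more abundant aquaporin gene, was at 97.1, 146.2 and 87.6 FPKM and 90.4, 100.8 and 132.9 FPKM in the Hap.B lines. PIP2-4 separated the groups and PIP2-1 did not.

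Whether the genes that separated the 6 lines also followed ZAG2 elsewhere was described in the other lines of the panel, which had no part in the comparison. Spearman's rho of each gene with ZAG2 over these lines had a median of 0.02 over all genes tested, and 52.8% were above 0. Among the 1981 genes with all 3 Hap.A lines higher the median rho was -0.30, and 160 of them (8.08%) were above 0. Among the 2046 genes with all 3 Hap.A lines lower the median was 0.21, and 1859 (90.9%) were above 0. The genes that were high where ZAG2 was low thus tended to vary against ZAG2 across the panel, and the genes that were low with it tended to vary with it. Within the 94 other CIMBL lines the medians were -0.33 and 0.25. The 6 lines lay toward the ends of the panel in ZAG2, so its haplotype and its level cannot be told apart in this pattern. The lines share relatedness, size factors and differences in kernel stage, and no test was made on these correlations.

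The consistency r was set beside ZAG2 in the same way. Its median rho with the 1981 genes was -0.13 and with the 2046 genes 0.11, against 0.00 over all genes tested. ZAG2 itself had a rho of 0.04 with the consistency r over the other lines of the panel and of 0.39 within their 94 CIMBL lines. Among the genes whose nearest lines were at least 2-fold apart, the median rho with ZAG2 was -0.13 where the Hap.A lines were higher and 0.13 where they were lower, and the median rho with the consistency r was -0.07 and 0.15 for the same sets. Among the genes that DESeq2 called, the median rho with ZAG2 was -0.20 for the higher and 0.15 for the lower genes, and that with the consistency r was -0.15 and 0.19. In the lower genes of both sets the consistency r thus had a larger median rho than ZAG2.

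**Figure D4:**
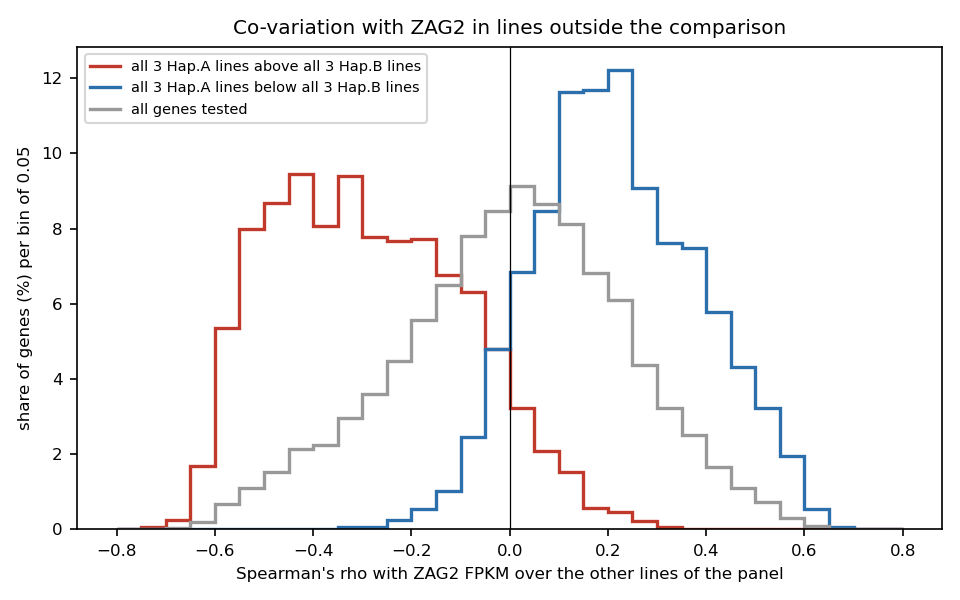
Share of genes (%, y axis) by Spearman's rho with the FPKM of ZAG2 over the other lines of the panel (x axis, bins of 0.05) for genes with all 3 Hap.A lines above all 3 Hap.B lines (red), genes with all 3 below (blue) and all genes tested (grey). The red distribution lies left of the grey one (medians -0.30 and 0.02) and the blue one right of it (median 0.21).

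The named genes at the ends of this ranking show the pattern gene by gene. The highest rho with ZAG2 among genes tested and named was 0.61 for prc2, followed by 0.59 for GF14-12, a 14-3-3 protein gene, and 0.58 for rps4 (GRMZM2G125271), described above. prc2 was at 49.4, 56.4 and 41.3 FPKM in the Hap.A lines, against 65.01, 86.003 and 80.4 FPKM in the Hap.B lines, and GF14-12 at 68.3, 101.7 and 63.7 FPKM against 125, 177 and 184.9 FPKM in the Hap.B lines. At the other end, the U1 small nuclear ribonucleoprotein gene 70 K (GRMZM2G113592) had a rho of -0.62, with 72.3, 60.8 and 74.97 FPKM in the Hap.A lines, against 48.98, 41.1 and 29.1 FPKM in the Hap.B lines. The chromatin remodelling gene brahma1 had a rho of -0.60, with 32.3, 17.2 and 28.8 FPKM in the Hap.A lines, against 11.7, 11.5 and 7.39 FPKM in the Hap.B lines. brd103, a bromodomain gene by its symbol, had a rho of -0.60, with 29.4, 16.98 and 18.5 FPKM in the Hap.A lines, against 13.98, 8.70 and 7.93 FPKM in the Hap.B lines. In each of these genes the groups of the 6 lines did not overlap. Several of the genes with the smallest p had a rho near 0. It was -0.07 for bHLH148, 0.06 for Laccase-13 and -0.01 for MYB94, against -0.57 for du1.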

How the data were processed

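RNA-seq of 5-DAP kernels gave 1 library for each of 318 maize inbred lines. The authors mapped cleaned 125 bp paired reads to B73 RefGen_v3 with TopHat2, counted uniquely mapped reads on the genes of Ensembl release 27, and deposited the counts per gene. The authors also deposited FPKM computed from DESeq2-normalised counts of all lines. The submitters' notes name Picard as well, and no versions were given in the sources used here. 0 columns of other samples were present.

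The 20573 genes with a median FPKM above 1 over the 6 lines were tested on the deposited counts with edgeR 4.0.16 (quasi-likelihood, TMM, Benjamini-Hochberg, threshold 0.05). DESeq2 1.42.0 and limma 3.58.1 on log2(FPKM + 1) or log2(FPKM + 0.1) were alternatives, as were other size factors and filters, each line left out, CIMBL lines only, and all 318 lines with or without the name series or the consistency r. CIMBL150 alone was added after seeing the data. The edgeR test was also run on counts simulated for 3 against 3 lines with the spread estimated from the 6 lines. It called 0 of 68 genes with an absolute log2 fold change of 1, 3 of 66 with 2 and 35 of 66 with 4. Of 20373 genes simulated without a change, it called 2. R 4.3.3 and Python 3.11.15 were used.

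The members and the 24 gene lists were chosen with earlier results of these data known. The lists were matched by symbol to the RefSeq table of assembly NAM-5.0, used for names and neighbours only (14711 tested genes matched, 1965 with a name), and symbols shared with another gene family were taken out after values were seen. Named genes were the 10 named and the 3 of any kind with the smallest p in each direction (none passed), per list the 2 with the smallest p and the 2 with the highest mean, the neighbours of ZAG2, and the 3 with the highest and lowest rho with ZAG2. Counts were not strand-specific as far as the sources state, so overlapping genes cannot be told apart. Depth was 11619471 to 15863761 counts per line.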

Additional observations from a re-analysis of the deposited data

How the results depend on the processing

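The edgeR count of 0 genes stayed at 0 with other size factors, both other filters, CIMBL lines only, CIMBL150 alone (chosen after seeing the data), and all 318 lines with or without the name series or the consistency r. DESeq2 called 395 genes, with 0.719% of the genes higher and 1.21% lower in the Hap.A lines, and limma on log2(FPKM + 1) called 6, with 0.00972% higher and 0.0194% lower, all 6 also called by DESeq2. The cause was not tested. With each line left out in turn the count was 0 to 1, or 0 to 0.00486% of the genes for those lower in the Hap.A lines, and the 1 gene, GRMZM2G174204, was called without CIMBL6. The difference in consistency r was -0.21 and became -0.0888 on log2(FPKM + 1), where the exact permutation p was 0.2. Of 1989 values of the named genes under alternatives, 1901 kept their sign and 88, in 31 genes, had the other sign. None of the 88 was in a gene whose groups did not overlap. Every alternative used these lines or a part of them, so such a gene keeps its sign almost by definition. Its kept sign is therefore no check on that gene. The medians of 11 of 25 lists kept their sign in all 17 alternatives, and the light and clock list was at -0.04 with CIMBL150 alone. No paired analysis was possible because the replicate numbers only name the lines and pair no samples. The coefficient of variation between lines of a haplotype was 0.559 with 3 lines each, and its part in the number of calls was not tested.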

Other observations

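In 9 of the 20573 genes tested 1 haplotype had no count in any of its 3 lines. These 9 genes passed the filter of a median above 1 FPKM only through their values in the other haplotype. The filter thus sets part of the gap. In 7 of them, none with a name, the Hap.A lines had no count, and these genes were at least 4.92- to 22.8-fold lower in the Hap.A lines with 3 counts per library as the floor. At least 92 of the other lines of the panel also had no count of each of these genes. In the other 2, GRMZM2G445139 and GRMZM2G076665, the Hap.B lines had no count, and GRMZM2G076665 was at 4.45, 6.41 and 3.38 FPKM in the Hap.A lines and had no count in 180 of the other lines of the panel.

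Some genes followed single Hap.A lines. dhn1, a dehydrin gene of water stress and abscisic acid response, was at 31.6, 2.70 and 38.4 FPKM in CIMBL120, CIMBL150 and CIMBL6, against 4.98, 0.879 and 0.715 FPKM in the Hap.B lines, so that CIMBL150 lay among the Hap.B lines. GRMZM2G174204, singled out after its values were seen, was at 0.106, 0.0644 and 40.9 FPKM in CIMBL120, CIMBL150 and CIMBL6, against 41.8, 44.9 and 47.8 FPKM in the Hap.B lines, so that CIMBL6 lay beside the Hap.B lines.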
